A study of Arabidopsis thaliana with 2 samples.

Results

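The Polycomb group genes of Arabidopsis thaliana examined here were the 9 loci CLF, SWN, MEA, EMF2, VRN2, FIS2, FIE, MSI1 and LHP1. They were chosen by name, and a differentially methylated region was assigned to a gene when it shared a base with the gene or lay within 1 kb of either end. Of 83934 regions in the authors' deposited tables, 33 met this rule, of which 32 were in the CG context and 1 in CHH (H is any base but G). Genomic DNA came from whole seedlings grown in vitro for 10 days, with 1 bisulfite library of Col wild type and 1 of ddb2-3, an insertion line (DsLoxHs195_05H) in DDB2, which encodes a DNA damage recognition protein of global genome repair. A further set of tables compares Col with a line called cen, whose genotype and growth the labels used here do not describe. Bisulfite converts unmethylated cytosines, so the share of unconverted reads gives the methylation level, and the tables give the difference in that level between the lines for each region. There were no replicates, levels per library or read numbers, so no difference could be tested and the depth behind each region is unknown. All differences are printed as Col minus the other line. This sign was inferred from the data, so that a negative value was read as higher methylation in ddb2-3 or cen and a positive value as lower methylation. Both comparisons name Col as the reference, for which the labels give 1 library, so a region listed in both tables is not an independent repeat. Whole seedlings mix cell types, and a change in every cell cannot be told apart from a larger change in some of them.

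Polycomb repressive complex 2 places methyl groups on lysine 27 of histone H3 and thereby keeps developmental genes silent. Its plant form holds an Enhancer of zeste subunit that carries the catalytic SET domain, a zinc-finger subunit related to Suppressor of zeste, the WD40 protein FIE and the histone-binding WD40 protein MSI1, and LHP1 binds the finished mark. Forms with MEA and FIS2 act mainly in the female gametophyte and endosperm, where MEA and FIS2 are imprinted, while CLF, SWN, EMF2 and VRN2 act in the plant body and in the vernalization response. CG methylation within transcribed genes is common in Arabidopsis and is copied at each replication by MET1, whereas methylation in all contexts is typical of transposons.

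In ddb2-3, 8 of the 9 Polycomb genes had a CG region, all but VRN2, and no CHG or CHH region was listed at any of them, where 5.04% of all protein-coding genes had a CHG and 7.66% a CHH region. The authors' deposited table held 19 CG regions at these genes, 13 higher and 6 lower in ddb2-3. Among all 27444 protein-coding genes, 57.7% had a CG region by the same rule. The Polycomb genes are longer than most, at 2.23 to 6.001 kb with a median of 4.19 kb against 2.08 kb over all protein-coding genes, and of the 11494 protein-coding genes in that range 74.5% had a CG region. Higher regions stood at 7 Polycomb genes, against 39.0% of protein-coding genes of any length, and lower regions at 4, against 43.0%. Of all CG regions at protein-coding genes, 46.2% were higher in ddb2-3. Per kb of gene and flank, the Polycomb genes held 0.341 CG regions and all protein-coding genes 0.287. Counting only absolute differences of at least 0.2 left 11 regions at 5 Polycomb genes. This limit was not applied to all protein-coding genes, so these 2 counts cannot be set against the shares above.

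In cen, 5 of the 9 genes (CLF, SWN, EMF2, FIE and LHP1) had a CG region, with 13 regions, 10 higher and 3 lower, in the authors' deposited table. The background was 60.1% of all protein-coding genes and 76.5% of those as long as the Polycomb genes. Higher regions stood at 5 genes, against 46.0% of protein-coding genes of any length, and lower regions at CLF and EMF2, against 40.1%. Over all protein-coding genes, 54.4% of CG regions were higher in cen. The Polycomb genes had 0.233 CG regions per kb of gene and flank in cen and all protein-coding genes 0.311. Of the 13 regions, 7 reached an absolute difference of 0.2, and flanks of 2 kb raised the 13 to 25. Neither setting was counted over all protein-coding genes, so it is unknown whether other genes change as much. By the 1 kb rule, the share of Polycomb genes with a region was above the background in ddb2-3 and below it in cen. With 9 genes neither share stands far from that of long genes.

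**Figure D1:**
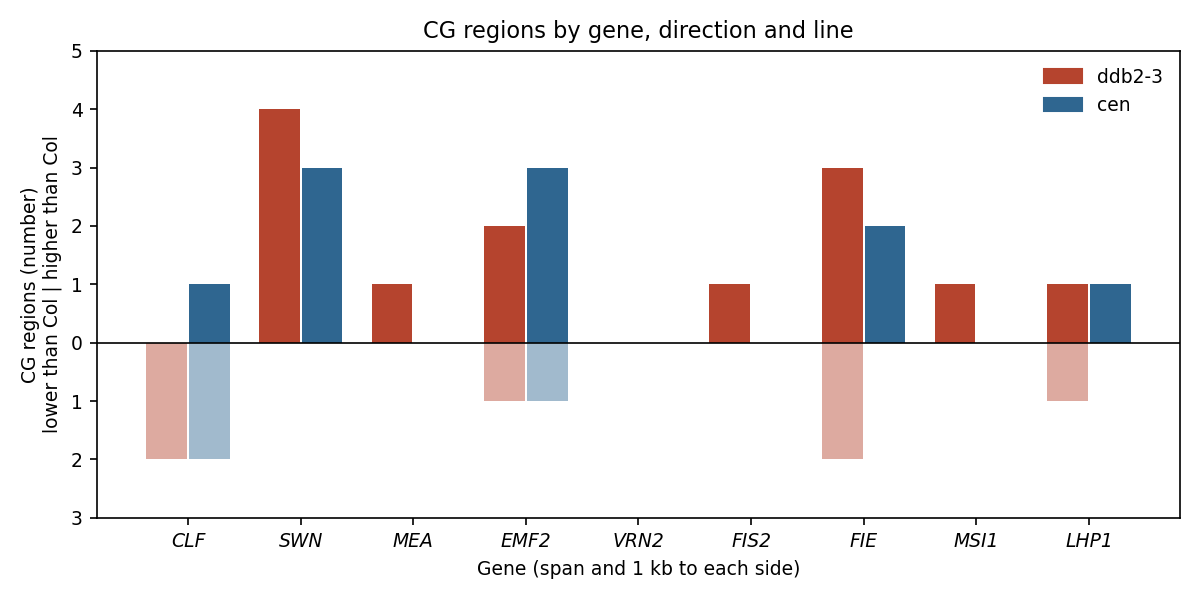
Number of CG regions at each Polycomb group gene (span and 1 kb to each side) in ddb2-3 (red) and cen (blue), with regions higher than Col drawn upwards in full colour and lower ones downwards in pale colour. SWN has 4 and 3 higher regions and no lower one, CLF has 2 lower regions in each line and 1 higher in cen, and VRN2 has none.

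CLF and SWN encode the Enhancer of zeste subunits active in the plant body. SWN (AT4G02020, chromosome 4), 5.41 kb long against a median of 2.08 kb over all protein-coding genes, had 4 CG regions in ddb2-3. Of all protein-coding genes, not matched for length, 8.88% had that many or more. All 4 lay within the gene and all were higher in ddb2-3, with values in the authors' deposited table of -0.323 at 887601 to 887700, -0.166 at 889601 to 889700, -0.804 at 890301 to 890400 and -0.170 at 890901 to 891000. The value of -0.804 was the widest difference at any Polycomb gene, and 99.6% of the CG regions of ddb2-3 had a smaller absolute one. For cen the authors' deposited table gave -0.311 at 887401 to 887700, -0.333 at 890001 to 890100 and -0.195 at 890901 to 891000, all within SWN and all higher. The first and last of these windows shared bases with ddb2-3 windows of similar value, while the window of -0.804 had no counterpart, the nearest cen window ending 200 bp before it.

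CLF (AT2G23380, chromosome 2) had lower regions in ddb2-3 and no higher one. Within the gene, the authors' deposited table listed 0.280 at 9956201 to 9956500, the longest region at a Polycomb gene in ddb2-3 at 300 bp. In the flank on the high-coordinate side it listed 0.510 at 9960601 to 9960700, a window that overlaps the neighbouring gene AT2G23390. In cen, that flank was again lower, by 0.291 at 9960501 to 9960700 in the authors' deposited table. Inside CLF the cen windows stood elsewhere, at -0.176 for 9958401 to 9958500 and 0.509 for 9958601 to 9958800 in the authors' deposited table, so that gain and loss were 100 bp apart. In ddb2-3 the CG regions were all higher at SWN, and at CLF all lower, with 1 in the gene and 1 in the flank. In cen, CLF itself had both directions, and no test of the contrast was possible.

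MEA (AT1G02580, chromosome 1), the imprinted Enhancer of zeste gene, had no region within the gene in any table. Its regions lay in the flank on the high-coordinate side, outside any other annotated gene, and were small. In ddb2-3 the authors' deposited CG table gave -0.129 (higher) at 549901 to 550000. In cen no CG region was listed there, but the authors' deposited CHH table gave 0.104 (lower) at 549701 to 549800, with 100 bp between both windows. That CHH region was the only region outside CG at any of the 9 genes. In cen, a CHH region stood at 7.33% and a CHG region at 6.19% of all protein-coding genes.

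**Figure D2:**
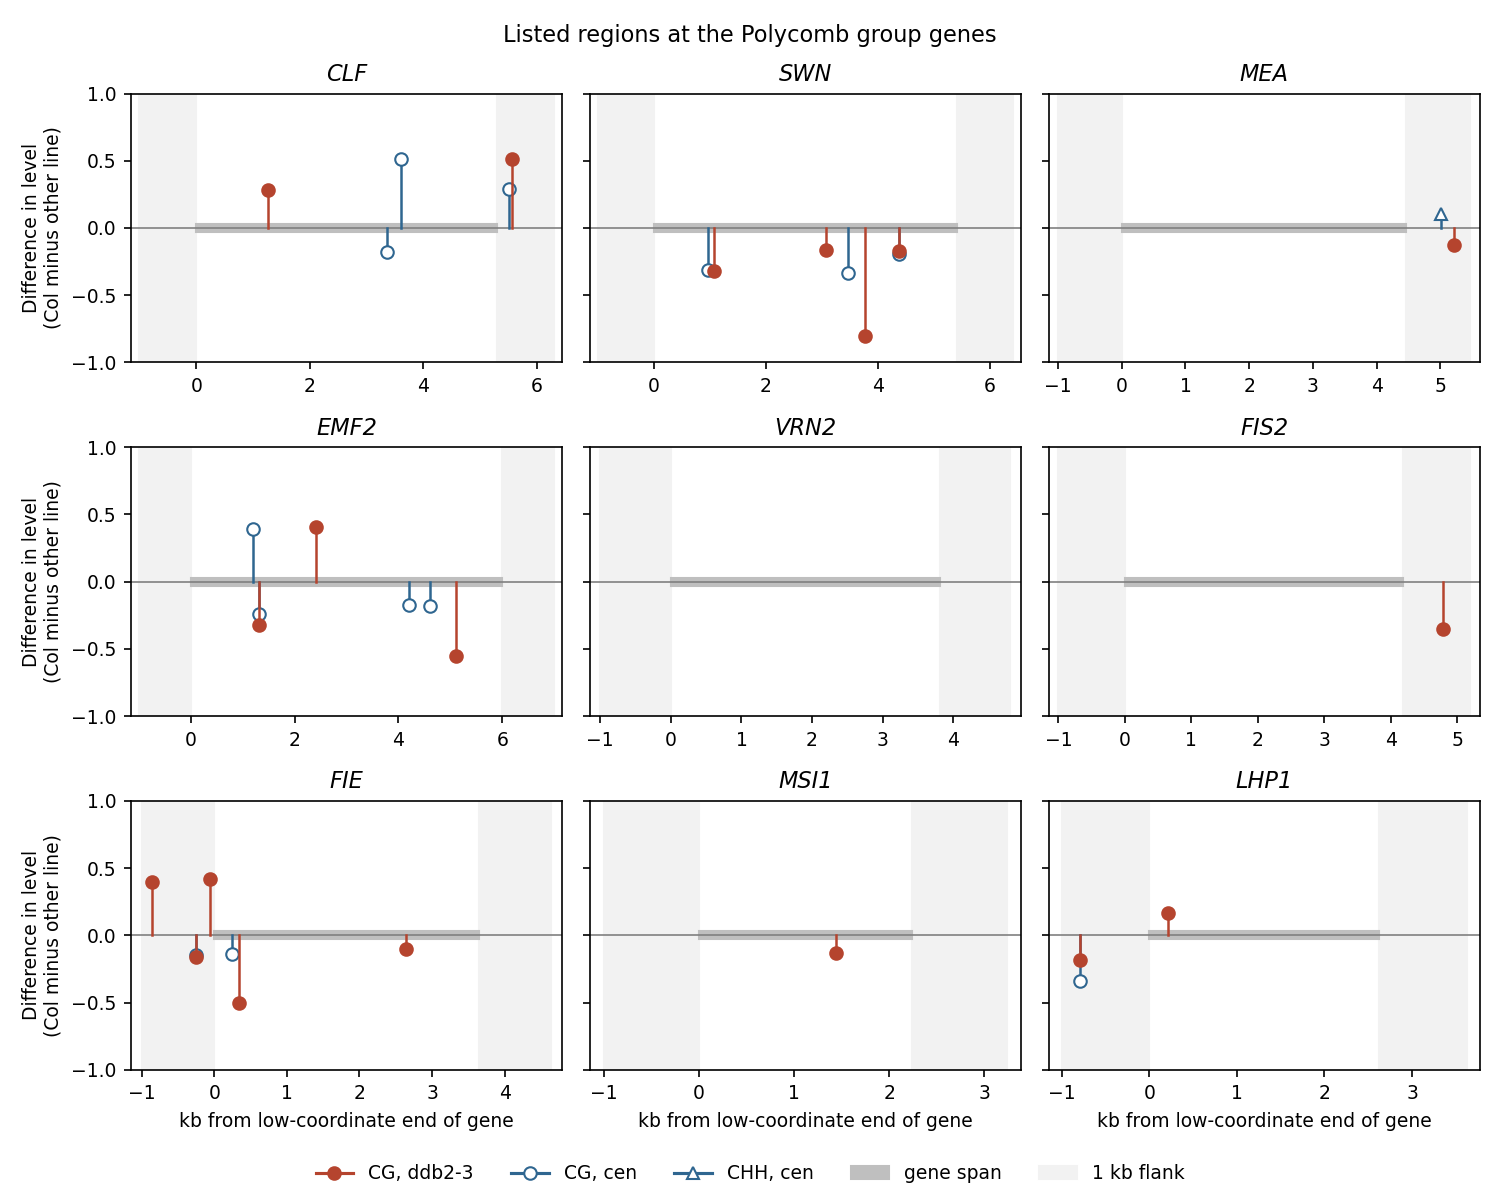
Every listed region at the 9 genes by its distance from the gene's low-coordinate end (kb) and its difference in methylation level (Col minus the other line, so points below 0 are higher than Col); the grey bar is the gene and the shaded bands its 1 kb flanks. Regions lie along the bodies of SWN and EMF2, stand only in the flank at MEA and FIS2, and are absent at VRN2.

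The zinc-finger subunits EMF2, VRN2 and FIS2 differed from each other in how many regions they carried. EMF2 (AT5G51230, chromosome 5), which represses flowering in seedlings, had 3 CG regions in ddb2-3, all within the gene. The authors' deposited table gave -0.324 at 20824901 to 20825000, 0.410 at 20826001 to 20826100 and -0.556 at 20828701 to 20828800, that is, a lower window between higher ones. Of protein-coding genes of any length, 10.3% had 4 or more CG regions in cen. EMF2, 6.001 kb long, had 4 there, also all in the gene. Their values in the authors' deposited table were 0.389 at 20824801 to 20824900, -0.243 at 20824901 to 20825000, -0.176 at 20827801 to 20827900 and -0.181 at 20828201 to 20828300. The first pair are adjoining windows of opposite direction, and the second of that pair was listed higher in ddb2-3 too. Elsewhere in EMF2 the windows of both lines did not share bases.

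VRN2 (AT4G16845, chromosome 4), needed for the lasting silencing of FLC after cold, was the member with no region in any of the 6 tables. The nearest CG regions in the authors' deposited tables were 0.176 (lower) at 9481101 to 9481400 for cen and -0.137 (higher) at 9484001 to 9484100 for ddb2-3, both beyond 1 kb. FIS2 (AT2G35670, chromosome 2), the imprinted member of this group, had 1 region, in ddb2-3, at -0.350 (higher) for 14997301 to 14997400 in the authors' deposited table. This window overlaps the neighbouring gene AT2G35680 and not FIS2. MEA and FIS2, which belong to the seed form of the complex, thus had no region in the gene itself in either line. Neither had VRN2, and in cen MSI1 and LHP1 had none in the gene either. In ddb2-3, 43.5% of all protein-coding genes and 66.6% of those as long as the Polycomb genes had a CG region inside the gene, and 6 of the 9 Polycomb genes did. In cen these shares were 45.8% and 69.1%, and 4 Polycomb genes had one.

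FIE (AT3G20740, chromosome 3), the WD40 subunit common to all forms of the complex, had the most regions of any member in ddb2-3, 5 in CG. Of protein-coding genes of any length, 4.42% had 5 or more, and FIE is 3.64 kb long. Within the gene the authors' deposited table gave -0.500 (higher) at 7249101 to 7249200 and -0.1001 (higher) at 7251401 to 7251500, the latter at the lower limit of the table. On the low-coordinate side it gave 0.395 (lower) at 7247901 to 7248000, -0.160 (higher) at 7248501 to 7248600 and 0.418 (lower) at 7248701 to 7248800. These flank windows all overlap the neighbouring gene AT3G20730. Higher and lower windows thus alternated along this flank up to the end of the gene, while FIE itself held only higher ones. In cen the authors' deposited table had -0.149 at 7248501 to 7248600 in the flank and -0.139 at 7249001 to 7249100 in the gene, both higher and both small. The cen window in the gene adjoins the ddb2-3 window of -0.500 without sharing a base with it.

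MSI1 (AT5G58230, chromosome 5), which binds histones and is also part of chromatin assembly factor 1, had 1 small region. It lay within the gene at 23557401 to 23557500 and was higher in ddb2-3, at -0.129 in the authors' deposited CG table, and cen had none. LHP1 (AT5G17690, chromosome 5, listed in the gene table as TFL2), the chromodomain protein that binds methylated lysine 27, had 2 CG regions in ddb2-3. The authors' deposited table gave 0.167 (lower) at 5827301 to 5827400 in the gene and -0.181 (higher) at 5826301 to 5826400 in the flank. This flank window overlaps the neighbouring gene AT5G17680. In cen that same flank window was higher, at -0.340 in the authors' deposited table, and LHP1 itself had no region.

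Over all 9 genes, regions lay in the gene about as often as at other genes. At all protein-coding genes, counted by the same rule, 70.4% of CG regions in ddb2-3 and 70.3% in cen were in the gene. In ddb2-3, 12 of the 19 CG regions were in the gene (9 higher, 3 lower), and 6 of the 7 in a flank overlapped another protein-coding gene. In cen, 10 of 13 were in the gene (8 higher, 2 lower), and all 3 in a flank overlapped another protein-coding gene. Windows were short, with 18 of 19 regions in ddb2-3 and 10 of 13 in cen at 100 bp, and none above 300 bp. In ddb2-3, 82.5% of all CG regions were 100 bp long, and in cen 81.3%. The gene table gives no strand or exons, so no flank is called a promoter and the windows are not placed in exons, introns or UTRs.

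The median absolute difference of the 19 CG regions at Polycomb genes in ddb2-3 was 0.323, from 0.1001 to 0.804, beside 0.232 for all 30327 CG regions in the authors' deposited table. In cen the median of 13 regions was 0.243, from 0.139 to 0.509, beside 0.232 for all 32847. At 0.5 and above stood SWN, EMF2 and the CLF flank in ddb2-3 (-0.804, -0.556 and 0.510) and the CLF gene in cen (0.509), as the authors' deposited tables give them, with FIE in ddb2-3 at -0.500 just below.

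**Figure D3:**
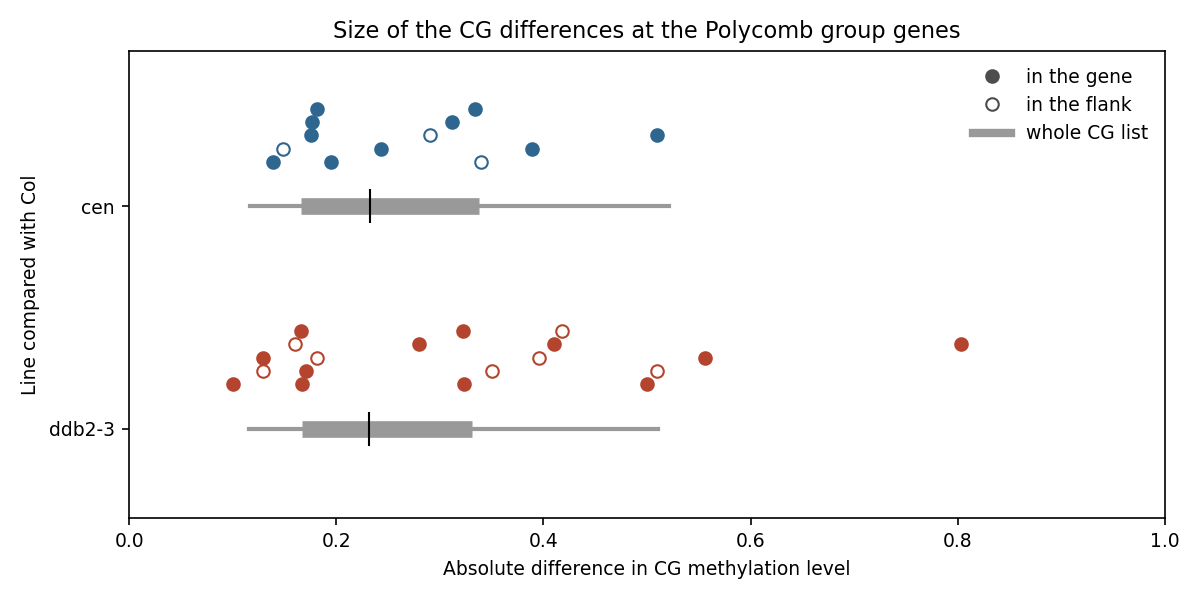
Absolute difference in CG methylation level for each region at a Polycomb group gene (filled circles in the gene, open circles in the flank) in ddb2-3 and cen, above the whole CG list of each line (tick, median; thick bar, 25th to 75th percentile; thin bar, 5th to 95th percentile). The whole lists have medians of 0.232 and 0.232, and the SWN region at 0.804 stands farthest to the right.

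Outside CG, the nearest CHG or CHH region mostly lay beyond the 1 kb flanks of these genes. For the 35 pairs of a gene and a CHG or CHH table with nothing within 1 kb, it lay 3.73 to 205 kb away, with a median of 26.6 kb. Such distances were not taken for other genes, so it is unknown whether these are unusual. The limit of 1 kb itself decided several assignments. The regions that were farthest out but still counted were the ddb2-3 window of FIE at 0.395 (7247901 to 7248000) and the LHP1 flank windows, in the authors' deposited tables. Just beyond the limit lay a cen window beside FIE at 0.273 (7247601 to 7247800), a ddb2-3 window beside MSI1 at 0.182 (23554901 to 23555000), a ddb2-3 window beside LHP1 at 0.421 (5826001 to 5826100) and a cen window beside EMF2 at 0.828 (20822501 to 20822600), all lower, in the authors' deposited tables. Farther out regions of both directions followed, the next a cen window beside MSI1 at -0.438 (higher) for 23554601 to 23554900 in the authors' deposited table.

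The other genes of the pathway were 30 loci. Among them were genes of Polycomb repressive complex 1, MSI-type WD40 proteins, partners of the complex in vernalization, recruiters, readers, histone demethylases and antagonists. These genes carried CG regions in most cases. In ddb2-3, 27 of 30 had one, against 57.7% of all protein-coding genes, with higher regions at 23 (background 39.0%) and lower ones at 20 (43.0%). In cen, 28 of 30 had one, against 60.1%, with higher regions at 25 (46.0%) and lower ones at 21 (40.1%). These genes too are longer than most, with a median of 3.66 kb and a range of 2.08 to 10.3 kb. The shares of genes as long as the Polycomb group genes were 74.5% in ddb2-3 and 76.5% in cen. That range, 2.23 to 6.001 kb, is narrower, so these shares are not matched to the pathway list. Per kb of gene and flank the pathway genes held 0.452 CG regions in ddb2-3 and 0.479 in cen, and all protein-coding genes 0.287 and 0.311. The widest differences lay at EBS, a reader of histone H3 methylation that delays flowering, at AT5G46910 and AT3G03140, and at ATX1, a trithorax-type methyltransferase that counters Polycomb silencing. At EBS (AT4G22140, chromosome 4) the window 11728801 to 11729000 in the gene was lower at 0.871 in ddb2-3 and 0.606 in cen in the authors' deposited tables. The flank window 11727001 to 11727100, which overlaps the neighbouring gene AT4G22130, was lower at 0.504 in ddb2-3 and 0.831 in cen in the authors' deposited tables. In AT5G46910 the window 19049701 to 19049800 of chromosome 5 was lower at 0.819 in ddb2-3 and 0.358 in cen in the authors' deposited tables. In AT3G03140 the 400 bp region 725501 to 725900 of chromosome 3 was lower at 0.728 and 0.734 in the authors' deposited tables. Within ATX1 (AT2G31650, chromosome 2), the authors' deposited tables gave -0.835 (higher) in cen at 13458601 to 13458700, where ddb2-3 had no region, and 0.509 (lower) in ddb2-3 and 0.205 (lower) in cen at 13457901 to 13458000.

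Outside CG, 4 of these 30 genes had a region, each in the flank and each higher than Col. By table these were 2 genes in CHG and 1 in CHH for cen, beside 6.19% and 7.33% of all protein-coding genes, and 1 in CHH and 0 in CHG for ddb2-3, beside 7.66% and 5.04%, so the counts were near the background. Regions at protein-coding genes were mostly higher in these tables, at 84.5% for CHG and 72.1% for CHH in cen and 67.8% for CHH in ddb2-3. In the authors' deposited tables for cen, CHG regions of -0.186 stood at FVE, an MSI-type WD40 protein of the flowering pathway, and of -0.169 at AT3G23060, and a CHH region of -0.120 at VRN5, a PHD-finger partner of the complex in vernalization. In the authors' deposited table for ddb2-3 a CHH region of -0.117 stood at BLI, a protein that binds CLF. A CG region lay beside some of these, such as -0.197 (higher) at FVE in the authors' deposited table for cen.

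Genes known as Polycomb targets carried few regions. Of 21 such genes, chiefly MADS-box, homeobox and seed regulators, 5 had a CG region in ddb2-3 (STM, WUS, AP3, SHP1 and SHP2) and 3 in cen (AG, STM and SHP2). These counts stand against 57.7% and 60.1% of all protein-coding genes, and the target genes had a median length of 3.46 kb. No share was counted for genes matched to them in length. Higher CG regions stood at 1 target gene in ddb2-3 (background 39.0%) and lower ones at 5 (43.0%). In cen, higher ones stood at 0 (46.0%) and lower ones at 3 (40.1%). Per kb of gene and flank the target genes held 0.0516 CG regions in ddb2-3 and 0.0258 in cen, beside 0.287 and 0.311 over all protein-coding genes. With flanks of 2 kb the counts were 10 and 7 of 21, for which no share over all protein-coding genes was counted. Within the genes alone the counts were 2 of 21 in each line. Of all protein-coding genes, 43.5% in ddb2-3 and 45.8% in cen had a CG region in the gene. The levels in the Col library are unknown, so it cannot be told whether the target genes had CG methylation to lose. The widest CG difference in ddb2-3 was -0.321 (higher) beside SHP1, a regulator of fruit development, in the authors' deposited table. In cen it was 0.349 (lower) within SHP2, the close relative of SHP1, and ddb2-3 had 0.174 (lower) at the same window, in the authors' deposited tables. In the authors' deposited tables STM, the shoot meristem homeobox gene, had 0.244 (lower) beside the gene in ddb2-3 and 0.185 (lower) in the gene in cen. Beside AP3, a petal and stamen identity gene, ddb2-3 had 0.266 (lower), and beside AG, the floral homeotic gene at which CLF was first studied, cen had 0.145 (lower), in the authors' deposited tables. Outside CG, the authors' deposited tables listed a CHG region of 0.193 (lower) beside KNAT1 in ddb2-3 and a CHH window beside KNAT2 at -0.112 in ddb2-3 and -0.104 in cen (both higher). Both genes encode homeobox proteins of the meristem. All CG regions in a flank of a target gene, 4 in ddb2-3 and 1 in cen, overlapped another protein-coding gene (AT1G62350 beside STM, AT3G54350 beside AP3, AT3G58790 beside SHP1 and AT4G18970 beside AG). No region of any table lay at FLC, FT, LEC1, LEC2, FUS3, ABI3, KNAT6, PHE1, SEP3, DOG1, PI, MAF4 or MAF5.

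**Figure D4:**
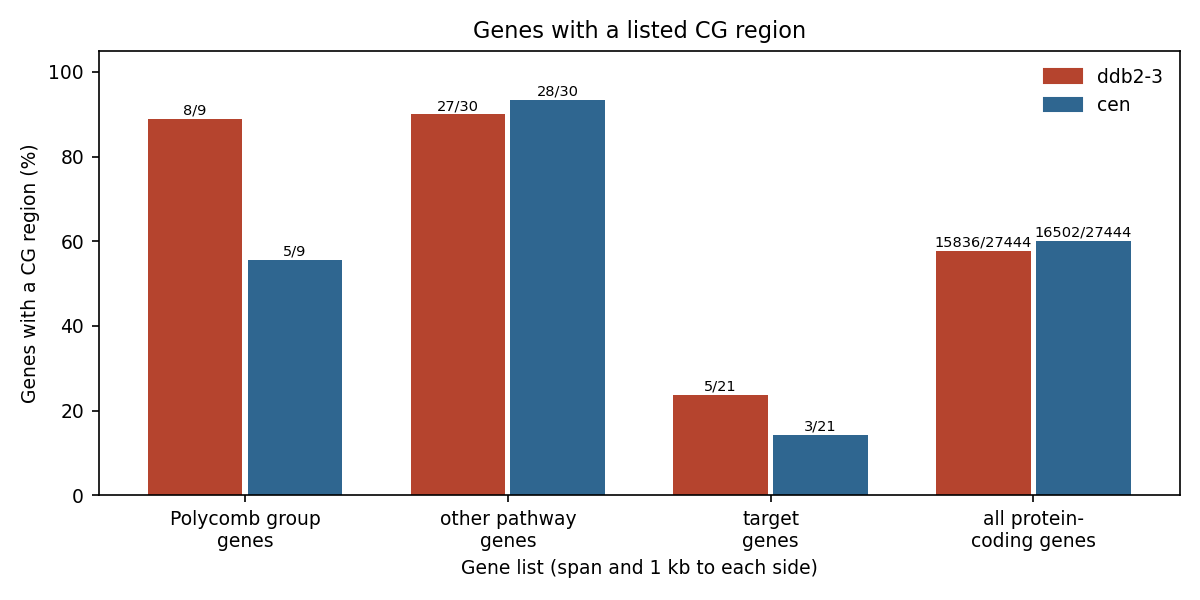
Share of genes with at least 1 CG region by the 1 kb rule, in ddb2-3 (red) and cen (blue), with the counts above the bars. The Polycomb group genes stand at 8 of 9 and 5 of 9, the other pathway genes at 27 and 28 of 30, the target genes at 5 and 3 of 21, and all protein-coding genes at 57.7% and 60.1%.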

How the data were processed

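The 6 deposited tables list differentially methylated regions of Col against ddb2-3 (named in the tables by its DsLox insertion) and of Col against a line called cen, in CG, CHG and CHH. Each row holds a position on a grid of 100 bp and the authors' difference in methylation level, all above 0.1 in absolute size. Per the submitters' processing notes, the tools included cutadapt, Trim Galore, FastQC, Bowtie2 2.0 and Bismark, and the genome was TAIR10. For the region caller, its test and its coverage minimum, nothing is stated in the labels or tables used here.

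The sign was inferred. Of 818 CG regions with the same place and value in both comparisons (within 1.5e-06), 806 were positive and 12 negative. Equal values are likeliest where both lines have no methylation, so positive was read as Col above the other line. The CHG ties (4 and 3) do not decide. If the inference is wrong, higher and lower are exchanged throughout.

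Gene spans came from the RefSeq table of TAIR10.1, whose name differs from TAIR10, and none of its coordinates are given. All 60 genes of the lists were found in it. Coordinates printed are those of the deposited regions, counted from 1. Counting was checked on simulated regions, where 500 of 500 genes equalled a direct count. The members and lists were chosen with earlier results of these data known. All members are described. Of the other lists, the genes named are those with a CHG or CHH region and the 3 per line with the widest CG differences. WUS and the targets with no region were named after their values were seen. A planned count of regions shared by both comparisons is not given, since both use Col, and values are set side by side instead. Python 3.11.15, pandas 2.3.3, NumPy 2.4.6 and matplotlib 3.10.9 were used.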

Additional observations from a re-analysis of the deposited data

How the results depend on the processing

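Of 54 alternative values for the main counts and rates, 40 stayed within 1.5 times the reported value and 14 did not. Keeping only regions of an absolute difference of at least 0.2 left 11 CG regions at 5 Polycomb genes in ddb2-3 (0.198 per kb) and 7 CG regions in cen (0.126 per kb), no CHG or CHH region in cen (0), and CG regions at 3 target genes in ddb2-3 and 1 in cen. Without the flanks, 12 CG regions remained at Polycomb genes in ddb2-3, 0 CHG or CHH regions in cen, and 2 target genes with a CG region in ddb2-3. With flanks of 2 kb, the Polycomb genes had 25 CG regions in cen, and 10 target genes in ddb2-3 and 7 in cen had one. Neither the limit of 0.2 nor the flanks of 2 kb were run over all protein-coding genes, so these counts have no background. Counting by midpoint moved none of these counts or rates by over 1.5 times. Merging same-direction neighbours within 100 bp was run for the numbers of regions and the rates per kb but not for the numbers of genes. It left all of those unchanged (19 CG regions in ddb2-3 and 13 in cen). No same-direction regions of a line at the Polycomb genes lay that close, so this alternative could not move the counts and is no check of them. The alternatives for the count shared by both comparisons were not run. No paired analysis was possible because each line has 1 library and the tables hold no values per library. With no reads per region, the depth limit of each difference is unknown.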
